A study of Mus musculus with 14 samples.

Results

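Glycolysis turns 1 molecule of glucose into pyruvate in the cytosol, and lactate dehydrogenase can then turn pyruvate into lactate. Transporters bring glucose in, hexokinases trap it by phosphorylation, phosphofructokinase makes the committed step, and the later enzymes split the sugar and recover ATP. Pluripotent mouse cells, whose expression program early germ cells share in part, are known for high use of this pathway. A set of its genes was followed here in the primordial germ cells of mouse embryos, which later give rise to eggs or sperm, over the days in which they settle in the genital ridges and start male or female development.

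The set was given as 10 genes: Slc2a3 (a glucose transporter), Hk1 and Hk2 (hexokinases), Gpi1 (glucose-6-phosphate isomerase), Pfkl and Pfkp (the liver and platelet types of phosphofructokinase), Aldoa (aldolase A), Pgk1 (phosphoglycerate kinase), Pgam1 (phosphoglycerate mutase) and Ldha (the A subunit of lactate dehydrogenase). A probe set counted as a member when the platform annotation gave it exactly 1 of these symbols. That gave 23 of 45101 probe sets and 9 of the 18194 genes measured. Gpi1 had no such probe set and was not analysed here. Hk1 had been selected on its measured values, a fall in E13.5 male cells, so every Hk1 difference that uses E12.5 or E13.5 male arrays is given below as a description with no test, and counts of tested members then run over 8 genes.

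The arrays fell into 7 groups of 2, labelled as biological replicates: unsexed germ cells at embryonic day (E) 9.5, 10.5 and 11.5, and male and female cells at E12.5 and at E13.5. From E10.5 on, embryos came from BDF1 females mated with males of a mixed B6/CBA background that carried a stella-EGFP transgene, a green reporter of a germ cell gene, and the cells were purified from trypsin-treated genital ridges by sorting on its fluorescence. The arrays of E9.5 were taken over from earlier work on C57BL/6 embryos, with another RNA kit and with 22 instead of 12 cycles of PCR amplification, and no sort is described for them, so age, strain and preparation cannot be told apart in any comparison with E9.5. An input of 5 ng RNA, stated to correspond to 500 cells, was used for each array. The number of embryos behind an array is not given in the sources used here, and the p-values measure the spread between arrays.

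Values are log2 probe set signals: a difference of 1 is a 2-fold change in signal, and levels of different probe sets cannot be compared with each other. Array medians lay between 4.66 and 4.80, and the table median was 4.72. The replicates of a group correlated at 0.961 to 0.981 over all genes, each by its probe set of highest mean. The values were 0.973 at E9.5, 0.961 at E10.5 and 0.974 at E11.5. Arrays of these groups correlated more highly with some array of another group, at up to 0.976, 0.976 and 0.978. The germ cell markers Dppa3 (the stella gene) and Pou5f1 read 13.09 to 13.76 and 12.44 to 13.09 over the 14 arrays, near the top of the scale. Germ cell markers were not all steady. Of 6 measured, 2 were higher and 1 lower at E13.5 than at E10.5 in each sex (limma, adjusted p under 0.05). Dazl was higher by 4.26 in males and 4.27 in females, and Ddx4 by 1.905 and 2.06. Kit changed by -0.61 in males and Pou5f1 by -0.595 in females. Signals of 2 Y-linked genes summed to 1812 to 3074 on the male and 9 to 64 on the female arrays, as the labels have it. Markers of other cells varied with age. The summed linear signal of 6 red blood cell genes was 11427 to 17857 at E9.5, 2299 to 3032 at E10.5 and 186 to 415 at E11.5. It was 80 to 453 at E13.5, with Hba-a1 at 0 in both arrays of each E13.5 group. That of 7 gonadal somatic genes was 786 to 1941 at E9.5, 644 to 914 at E10.5 and 206 to 218 at E11.5. It was 143 to 336 over the E12.5 and E13.5 arrays, with none at 0. That of 6 endothelial genes was 570 to 1243 at E9.5, 1323 to 1820 at E10.5, 489 to 1133 at E11.5, 1016 to 1375 at E12.5 and 241 to 1216 at E13.5, with none at 0. The part of these cells in the changes since E10.5 was not tested. In bulk samples, fewer cells of a type and less RNA per cell cannot be told apart. The signal of the Gapdh control probe sets at the 3′ end over that at the 5′ end, a measure of RNA and amplification quality, was 3.16 in E13.5 male replicate 2, 3.09 in E13.5 female replicate 2, 2.53 in E11.5 replicate 2 and at most 1.57 on the other arrays, in log2 units.

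The promoters of 3 members are shown first because the results below turn on these genes: Hk1 gave the set its name, Pfkp fell in both sexes between E12.5 and E13.5, and Ldha separated the sexes. The stretches run from 250 bases before to 50 bases after each RefSeq start (build GRCm38.p6), 5′ to 3′ on the gene's strand. Capitals mark each ACGTG, searched on both strands. It is 1 form of the core (A or G, then CGTG) of the element that hypoxia-inducible factors bind. The other form, GCGTG, was not searched or marked, so a window without ACGTG may still hold the core. Hk1 has 2 starts on the minus strand of chromosome 10, at chr10:62379859-62380158 and chr10:62340372-62340671. Pfkp starts on the minus strand at chr13:6648722-6649021, and the first of 2 Ldha starts lies on the plus strand at chr7:46845554-46845853.
Hk1 start 1: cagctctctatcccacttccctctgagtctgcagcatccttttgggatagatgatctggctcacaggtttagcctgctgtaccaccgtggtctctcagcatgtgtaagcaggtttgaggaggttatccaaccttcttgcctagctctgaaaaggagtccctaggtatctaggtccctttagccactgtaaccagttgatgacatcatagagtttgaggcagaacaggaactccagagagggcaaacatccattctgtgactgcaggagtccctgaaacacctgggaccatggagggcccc
Hk1 start 2: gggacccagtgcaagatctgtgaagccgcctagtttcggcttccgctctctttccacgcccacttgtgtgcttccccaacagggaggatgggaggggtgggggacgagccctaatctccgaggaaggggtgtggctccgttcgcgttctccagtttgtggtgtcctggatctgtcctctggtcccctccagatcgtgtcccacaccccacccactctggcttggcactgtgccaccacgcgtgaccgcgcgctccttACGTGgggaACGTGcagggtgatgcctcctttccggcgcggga
Pfkp: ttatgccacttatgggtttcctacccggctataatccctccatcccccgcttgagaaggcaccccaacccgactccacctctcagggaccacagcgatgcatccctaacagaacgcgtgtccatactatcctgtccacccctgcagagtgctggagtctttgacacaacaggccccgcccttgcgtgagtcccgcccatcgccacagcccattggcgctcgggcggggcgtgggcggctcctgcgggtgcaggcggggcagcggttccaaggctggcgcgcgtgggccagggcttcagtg
Ldha start 1: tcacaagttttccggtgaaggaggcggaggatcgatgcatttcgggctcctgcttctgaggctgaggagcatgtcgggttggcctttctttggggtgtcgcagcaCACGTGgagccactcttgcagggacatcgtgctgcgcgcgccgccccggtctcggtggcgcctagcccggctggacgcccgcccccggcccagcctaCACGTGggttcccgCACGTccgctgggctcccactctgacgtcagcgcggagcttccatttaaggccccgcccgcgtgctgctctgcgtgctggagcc
The first Hk1 start and Pfkp held no ACGTG, the second Hk1 start held 2, and the first Ldha start held 5. In that Ldha window 2 stretches read CACGTG, the E-box of Myc and related factors, and each of these holds ACGTG on both strands and so counts as 2 of the 5. Over the measured members, 12 promoters of 8 genes were matched, and 7 promoters of 6 genes (Hk1, Hk2, Aldoa, Pgk1, Pgam1 and Ldha) held ACGTG at least once. The windows of Aldoa starts 2 and 3 overlap and hold the same ACGTG, which counts in both. The second Ldha start, not shown, held none. Pfkl held none. Of all 32851 promoters in the table, 19.6% held ACGTG and 7.2% held CACGTG. These matches describe the letters in these windows and do not show binding.

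Hk1, a hexokinase bound to the outer mitochondrial membrane that phosphorylates glucose at low concentrations, lies at chr10:62268855-62379920. Its signal was 10.28 and 9.59 at E9.5, 10.34 and 9.29 at E10.5, and 10.41 and 9.77 at E11.5. At E12.5 it read 10.20 and 9.70 in males, with 9.37 and 9.46 in females. At E13.5 it read 6.93 and 7.92 in males, with 7.60 and 8.72 in females, so that all 4 of these arrays lay below the other 10. From E9.5 to E12.5 the groups overlapped, except that both E12.5 female arrays lay below those of E9.5, of E11.5 and of the E12.5 males.

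The E13.5 males stood 2.53 below the E12.5 males in Hk1 log2 signal, 5.76-fold, which is the difference the gene was selected on. The E13.5 females stood 1.25 below the E12.5 females, 2.39-fold, and this step did not pass after adjustment (limma, adjusted p = 0.22). Males minus females came to 0.54 at E12.5 and -0.73 at E13.5, and the males and females of E13.5 overlapped. The dimmer of the 2 Hk1 probe sets read 4.12 and 2.84 in E13.5 males and 5.04 and 4.48 in E13.5 females, against 6.96 and 6.05 in males and 5.92 and 5.22 in females at E12.5. Over the 14 arrays the 2 probe sets correlated at 0.81. Of the dimmer one, both E13.5 male arrays and 1 E13.5 female array lay below the table median.

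**Figure D1:**
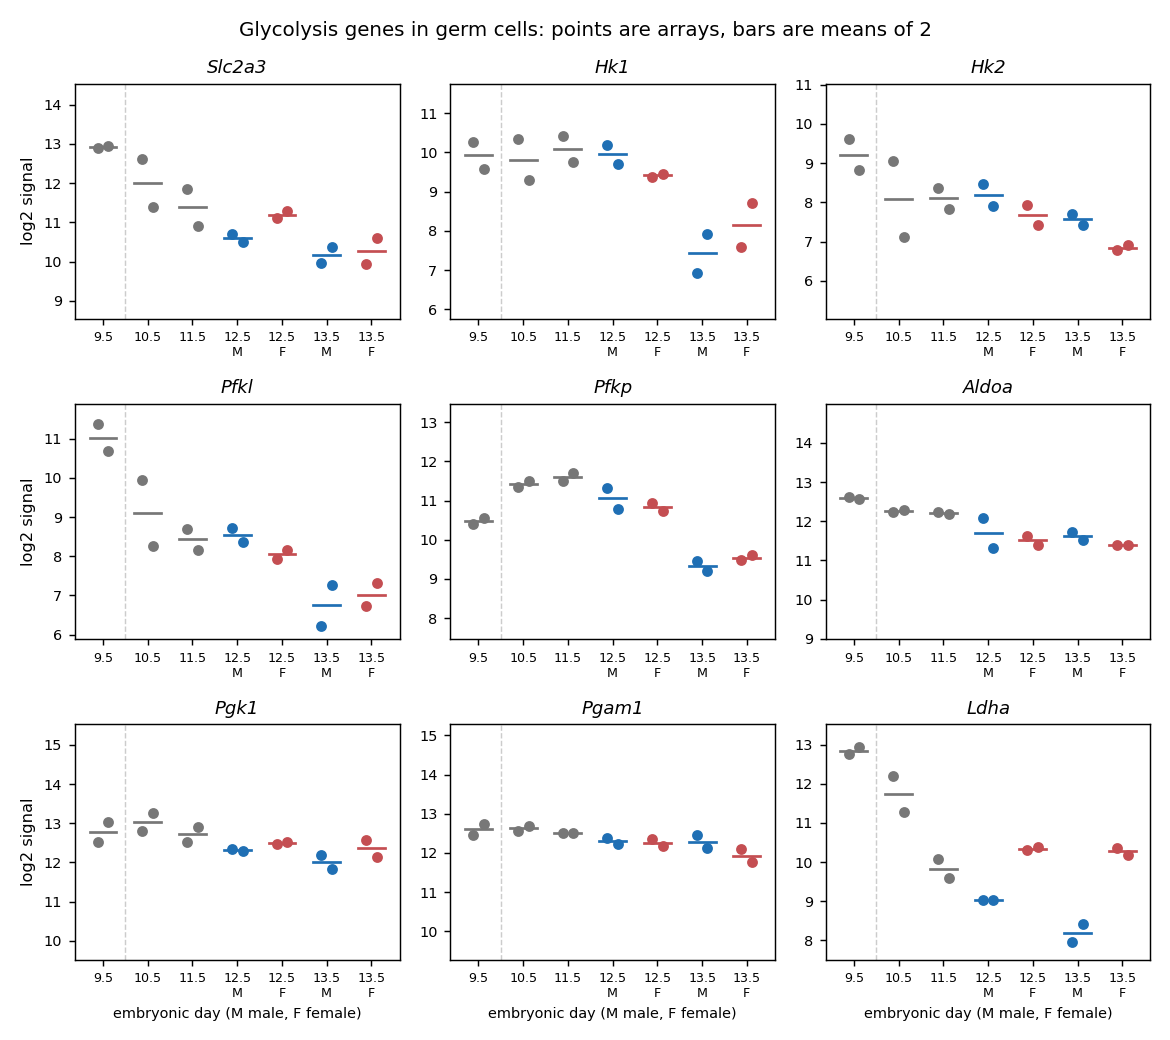
Log2 signal of the representative probe set of each of the 9 measured genes, 1 panel per gene with its own vertical axis; points are the 2 arrays of a group and bars their mean, with males left of females at E12.5 and E13.5 and a dashed line after E9.5. Hk1, Pfkl and Pfkp are lowest on the 4 E13.5 arrays, and Ldha is lower in males than in females at both ages.

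The members were next set against E10.5, the first age of the sorted series, a comparison added after the single-day steps had been seen. In E13.5 females 7 of 9 members fell: Slc2a3, Hk1, Pfkl, Pfkp, Aldoa, Pgam1 and Ldha. In E13.5 males 5 of the 8 tested members fell: Slc2a3, Pfkl, Pfkp, Pgk1 and Ldha. No member rose in either sex. Passing means an adjusted p below 0.05 in limma, adjusted over all genes. Over all genes, 17.9% passed in the female comparison, 6.39% as lower, and 12.7% passed in the male comparison, 5.23% as lower. The median change was -1.47 over the 9 members in females, beside 0.08 for all genes, and -1.43 over the 8 tested members in males, which leaves out Hk1, beside 0.07. Both E13.5 female arrays lay below both E10.5 arrays for 9 of 9 members, as for 20.6% of all genes, and both male arrays did so for 7 of 8, as for 20.8%. Both comparisons use the same 2 E10.5 arrays.

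Slc2a3, the high-affinity transporter GLUT3, lies at chr6:122727809-122802363. It read 9.96 and 10.36 in E13.5 males and 9.93 and 10.60 in E13.5 females, against 12.61 and 11.39 at E10.5. The log2 change was -1.84 ± 0.41 in males and -1.73 ± 0.41 in females (SE, n = 2 each; limma, adjusted p = 0.0131 and 0.0129). The E10.5 arrays differed by over 1, and neither call held without E10.5 replicate 1 (adjusted p = 0.0528 in males, 0.0637 in females). The calls were also lost without replicate 1 of the E13.5 group concerned. It read 12.90 and 12.94 at E9.5 and 11.85 and 10.91 at E11.5. At E12.5 it read 10.71 and 10.51 in males, with 11.10 and 11.28 in females, so these groups lay between those of E10.5 and E13.5 or overlapped with them. A second probe set of high signal correlated with it at 1.0, and 2 dim ones at 0.59.

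Among the hexokinases, Hk1 stood 1.65 ± 0.47 below E10.5 in E13.5 females, 3.15-fold (SE, n = 2 each; limma, adjusted p = 0.0319), and 2.39 below it in E13.5 males, 5.24-fold, which is given with no test. The Hk1 call in females was lost without E13.5 female replicate 1 and without E10.5 replicate 1. Hk2, the hexokinase of muscle and other insulin-responsive tissues, lies at chr6:82725025-82774454. It read 7.71 and 7.43 in E13.5 males and 6.79 and 6.90 in E13.5 females, against 9.06 and 7.11 at E10.5, where the 2 arrays lay almost 2 log2 units apart. Its changes of -0.52 in males (limma, adjusted p = 0.597) and -1.24 in females (adjusted p = 0.131) did not pass.

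Both phosphofructokinases fell in both sexes. Pfkp, at chr13:6579874-6649060, read 9.45 and 9.21 in E13.5 males and 9.48 and 9.60 in E13.5 females, against 11.35 and 11.50 at E10.5. The change was -2.10 ± 0.21 in males, 4.27-fold, and -1.89 ± 0.21 in females, 3.69-fold (SE, n = 2 each; limma, adjusted p = 0.000102 and 0.000178). All 4 E13.5 arrays lay below all others, and leaving out any 1 array of the comparison kept both calls. The other 2 Pfkp probe sets were dim, with signals up to 4.73, and correlated with it at 0.21, so the fall rests on 1 probe set.

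Pfkl, at chr10:77986947-78009807, read 11.37 and 10.68 at E9.5, 9.94 and 8.26 at E10.5, and 8.70 and 8.17 at E11.5. At E12.5 it read 8.71 and 8.37 in males, with 7.94 and 8.17 in females, and at E13.5 it read 6.23 and 7.26 in males, with 6.73 and 7.31 in females. All 4 E13.5 arrays lay below all others. Against E10.5 it fell by 2.36 in E13.5 males and by 2.08 in E13.5 females (SE 0.50 each, limma, adjusted p = 0.011 and 0.0154). The male call was lost without E13.5 male replicate 1 (adjusted p = 0.1), and the female call without E13.5 female replicate 1 (0.119) or E10.5 replicate 1 (0.0701). Without E10.5 replicate 1 the changes were -1.51 in males and -1.24 in females. A second Pfkl probe set correlated with this one at 0.99, whereas the remaining one, which correlated at 0.34, changed by -0.21 in males and 0.10 in females and did not pass.

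**Figure D2:**
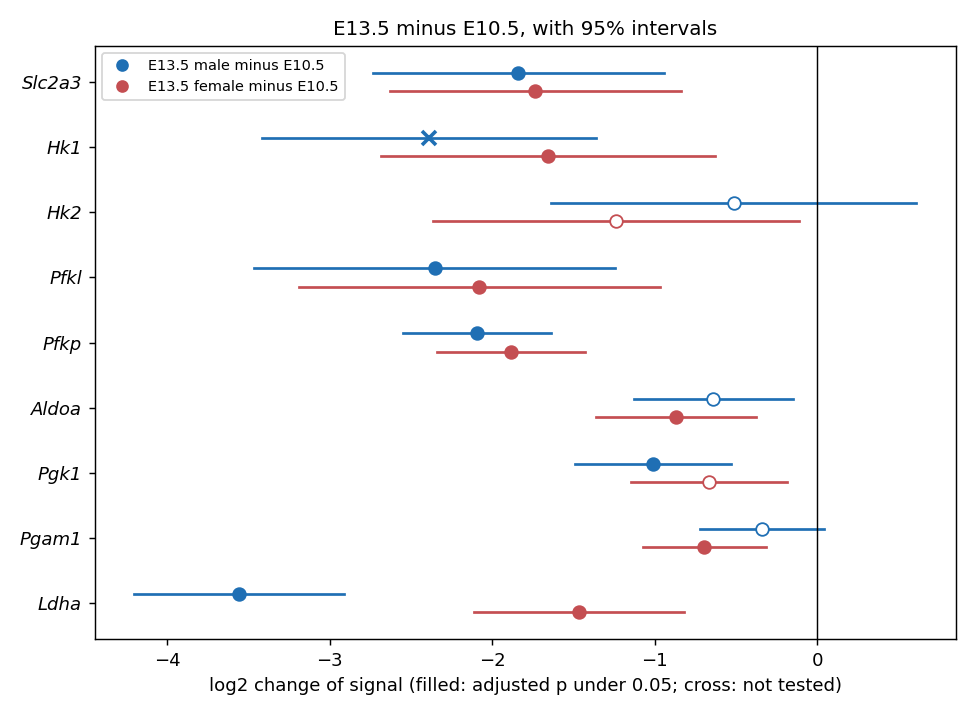
Change in log2 signal at E13.5 relative to E10.5 for each member, males above females within a gene; points are limma estimates with 95% intervals, filled where they passed, and the cross marks the Hk1 male value, a description. Every estimate lies below 0, and Ldha in males, at -3.56, lies farthest.

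Of the enzymes after this step, Aldoa, Pgk1 and Pgam1 each passed in 1 sex, with estimates between -1.01 and -0.34. Aldoa, which splits fructose bisphosphate, lies at chr7:126795234-126800994 and read 11.72 and 11.53 in E13.5 males and 11.39 and 11.40 in E13.5 females, against 12.23 and 12.30 at E10.5. It fell by 0.87 in females (SE 0.22, limma, adjusted p = 0.0201), and its male change of -0.64 did not pass (adjusted p = 0.0918). Pgk1, the X-linked enzyme of the first ATP-yielding step, lies at chrX:106187100-106203699 and read 12.20 and 11.83 in E13.5 males and 12.58 and 12.14 in E13.5 females, against 12.80 and 13.25 at E10.5. It fell by 1.01 in males (SE 0.22, limma, adjusted p = 0.0114), and its female change of -0.67 did not pass (adjusted p = 0.0588). Pgam1, which moves a phosphate within phosphoglycerate, lies at chr19:41911871-41918665 and read 12.45 and 12.12 in E13.5 males and 12.10 and 11.76 in E13.5 females, against 12.56 and 12.69 at E10.5. It fell by 0.70 in females (SE 0.17, limma, adjusted p = 0.017), and its male change of -0.34 did not pass (adjusted p = 0.253).

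The tests of the sexes against each other at E13.5 did not pass for these 3 genes. Each call was lost with certain single arrays left out, which leaves 1 array in a group. For Aldoa these were either E13.5 female array or E10.5 replicate 2, with changes of -0.865, -0.875 and -0.835, near the full estimate. For Pgam1 they were E13.5 female replicate 2 or E10.5 replicate 2 (-0.525 and -0.63). For Pgk1 they were E13.5 male replicate 2 or E10.5 replicate 2 (-0.825 and -0.785). All 5 Aldoa probe sets correlated at 0.94 or more with the one used and all 3 of Pgk1 at 0.99. Several of these are of the types (marked s or x by the maker) that can also bind related transcripts, and mouse Aldoa, Pgk1 and Ldha have processed pseudogenes.

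Ldha, whose subunit favours the step from pyruvate to lactate, lies at chr7:46842274-46855627. It read 12.75 and 12.94 at E9.5, 12.20 and 11.28 at E10.5 and 10.07 and 9.60 at E11.5. In males it then read 9.03 and 9.03 at E12.5 and 7.95 and 8.41 at E13.5, whereas females read 10.31 and 10.38 at E12.5 and 10.36 and 10.19 at E13.5. Both male arrays of each age lay below every array of another group except those of the other male group, and the females of both ages overlapped with each other. Relative to E10.5, Ldha was lower by 3.56 ± 0.29 in E13.5 males, 11.8-fold, and by 1.47 ± 0.29 in E13.5 females, 2.76-fold (SE, n = 2 each; limma, adjusted p = 3.74e-05 and 0.00547). Both calls held with any 1 array of the comparison left out.

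Step by step, few of these differences passed. At E10.5 against E9.5, 0 of 9 members passed with limma, beside 1.06% of all genes, and 5 had an unadjusted p under 0.05, beside 16.1% of all genes. Pfkl stood 1.93 lower at E10.5 (adjusted p = 0.112), Ldha 1.11 lower (0.105) and Slc2a3 0.92 lower (0.282), while Pfkp stood 0.94 higher (0.0515). The red blood cell markers differed several-fold between these ages, as given above, and their part was not tested. Without E10.5 replicate 1, 5 of 9 members passed, beside 10.6% of all genes.

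At E11.5 against E10.5, 0 of 9 members passed with limma, beside 0.0769% of all genes, and 1 had an unadjusted p under 0.05, beside 7.07%. That gene was Ldha, at 10.07 and 9.60 in E11.5 cells against 12.20 and 11.28 in E10.5 cells, a difference of -1.91 that just missed the threshold (limma, adjusted p = 0.053). Without E10.5 replicate 2 it passed (adjusted p = 0.0132). Hk1 differed by 0.28 in this step, with a 95% interval of -0.75 to 1.30, and Hk2 by 0.02, with an interval of -1.11 to 1.14. The red blood cell, gonadal somatic and endothelial sums were lower at E11.5 than at E10.5, as given above. Their part in the Ldha difference was not tested.

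At E12.5 against E11.5, 0 of 8 members passed in males and 0 of 9 in females with limma, beside 1.01% and 1.86% of all genes. An unadjusted p under 0.05 was found for 3 members in males and 2 in females, beside 9.37% and 13.4% of all genes. Ldha stood 0.81 below E11.5 in males (limma, adjusted p = 0.353) and 0.51 above it in females (0.509). Pfkp differed by -0.55 in males (0.39) and -0.77 in females (0.102), and Aldoa by -0.52 (0.499) and -0.71 (0.165). Hk1 differed by -0.14 in males, as a description, and by -0.68 in females (0.61).

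At E13.5 against E12.5, Pfkp was the single member that passed in each sex. It read 9.45 and 9.21 in E13.5 males, against 11.32 and 10.79 in E12.5 males, a change of -1.73 (SE 0.21, limma, adjusted p = 0.0037), and passed as 1 of 8 tested members. It read 9.48 and 9.60 in E13.5 females, against 10.94 and 10.73 in E12.5 females, a change of -1.29 (SE 0.21, limma, adjusted p = 0.0164), and passed as 1 of 9. Over all genes 2.09% passed in males, 0.731% as lower, and 1.87% in females, 0.566% as lower. The male call was lost without E12.5 male replicate 1 and the female call without any 1 of its 4 arrays. With 1 array left in a group, these estimates were -1.46 in males and -1.4 to -1.19 in females. The median change was -0.54 over the 8 tested members in males, which leaves out Hk1, and -0.83 over the 9 in females, beside 0.05 and 0.03 for all genes. A negative estimate was found for 8 of 8 members in males and 9 of 9 in females, beside 45.4% of all genes in males and 47.4% in females. Pfkl changed by -1.79 in males (limma, adjusted p = 0.111) and by -1.03 in females (0.377), with a larger standard error of 0.50, and did not pass.

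The sexes were then compared within each age. At E12.5, 1 of 8 tested members passed, Ldha, which was lower in males, while 2.39% of all genes passed, 1.73% as lower. Its difference was -1.32 ± 0.29, 2.49-fold (SE, n = 2 each; limma, adjusted p = 0.0452). The call was lost without any 1 of the 4 arrays, which leaves 1 array in a group, while the estimates then were -1.35 to -1.28. At E13.5, 1 of 8 passed, again Ldha, while 10.2% of all genes passed, 6% as lower. Here the difference was -2.10 ± 0.29, 4.27-fold (SE, n = 2 each; limma, adjusted p = 0.00123), and the call held with any 1 of the 4 arrays left out. The change of the difference between the ages, -0.78, did not pass (limma, adjusted p = 0.761, 95% interval -1.69 to 0.13). Of the 8 members, 0 passed that test with limma, beside 0.011% of all genes, and 0 had an unadjusted p under 0.05, beside 7.42%.

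The other members did not pass between the sexes at either age. At E13.5, male minus female estimates were 0.73 for Hk2 (95% interval -0.40 to 1.85), 0.36 for Pgam1 (-0.02 to 0.73) and 0.23 for Aldoa (-0.26 to 0.72). They were -0.34 for Pgk1 (-0.82 to 0.13), -0.28 for Pfkl (-1.39 to 0.84), -0.21 for Pfkp (-0.67 to 0.25) and -0.11 for Slc2a3 (-1.0 to 0.79). These intervals are too wide to show that the sexes were alike. Of 4 markers of male supporting cells, 1 was higher in males at each age, Cst9, at 7.20 and 7.84 in males and 3.24 and 2.01 in females at E12.5, and at 9.11 and 8.44 in males and 3.52 and 1.15 in females at E13.5 (limma, adjusted p = 0.00679 and 0.00041). Amh, Sox9 and Dhh did not pass. The summed linear signal of the 4 was 309 to 367 in males and 144 to 159 in females at E12.5, and 490 to 735 in males and 115 to 145 in females at E13.5, with none at 0. That of 4 female supporting cell genes was 120 to 121 in males and 183 to 277 in females at E12.5, and 98 to 147 in males and 213 to 265 in females at E13.5. Of these 4 genes, 0 passed at E12.5, and Irx3 and Bmp2 were lower in males at E13.5. Their differences were -4.105 and -1.505 (limma, adjusted p = 0.000964 and 0.0305), while Foxl2 and Fst did not pass. Red blood cell marker sums were 95 to 208 in males and 85 to 280 in females at E12.5, and 80 to 453 in males and 99 to 323 in females at E13.5. The part of supporting cells in the Ldha difference was not tested.

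**Figure D3:**
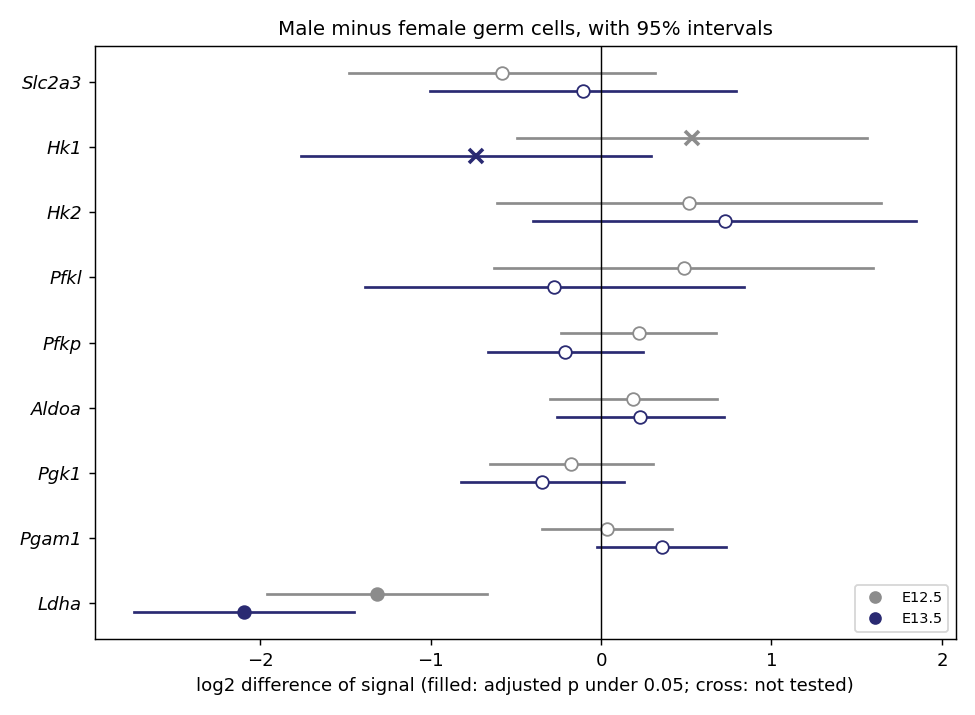
Male minus female log2 signal of each member at E12.5 and E13.5, with E12.5 above E13.5 within a gene; points are limma estimates with 95% intervals, filled where they passed, and crosses mark the Hk1 values, which are descriptions. Ldha is lower in males at both ages, at -1.32 and -2.10, and the intervals of the other members include 0.

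The other genes of the pathway were counted from 8 lists with 98 measured genes. Against E10.5, 4 were higher and 12 lower in E13.5 males, where 12.7% of all genes passed and 5.23% as lower, and 6 were higher and 19 lower in E13.5 females, where 17.9% passed and 6.39% as lower. Between the sexes at E13.5, 11 were higher and 8 lower in males, where 10.2% of all genes passed and 6% as lower. Of all 18194 genes, 763 were higher in that comparison. At E12.5, 1 was higher and 3 lower, where 2.39% passed and 1.73% as lower. The same shares of all genes stand beside the counts of each list below. The lists hold 6 to 17 measured genes each, so a count of 1 or 2 says little about a list. At E11.5 against E10.5 and in the change of the sex difference, 0 of 98 passed.

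Of 16 other glycolytic enzymes, 0 rose and 1 fell in E13.5 males against E10.5, and 1 rose and 3 fell in E13.5 females. Of all genes, 5.23% passed as lower in males, near the share of this list, and 6.39% in females. Tpi1, triose phosphate isomerase, fell in both. It read 10.25 and 10.03 in E13.5 males and 10.16 and 9.88 in E13.5 females, against 11.46 and 11.51 at E10.5, a change of -1.35 in males and -1.47 in females (SE 0.17 each, limma, adjusted p = 0.000508 and 0.000274). Pkm, pyruvate kinase of most embryonic tissues, fell by 0.61 in females (adjusted p = 0.0151). Between the sexes at E13.5, 3 of the 16 were higher in males (Pgam2, Eno4 and Pkm) and 0 lower, beside 763 of 18194 genes higher. Pkm was 0.54 higher in males (limma, adjusted p = 0.0415), at 12.89 and 12.79 in males and 12.46 and 12.14 in females.

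Of 17 genes for sugar and lactate transport and the other lactate dehydrogenases, 1 rose and 3 fell in E13.5 males against E10.5, and 0 rose and 5 fell in E13.5 females. Slc2a1, the widespread transporter GLUT1, read 10.46 and 10.50 in E13.5 males and 9.31 and 9.15 in E13.5 females, a difference of 1.25 (SE 0.20, limma, adjusted p = 0.00291), and it fell by 1.64 in females against E10.5 (adjusted p = 0.000339). Ldhb encodes the other common subunit, which favours the step from lactate to pyruvate. It ran opposite to Ldha in males since E10.5 and between the sexes at E13.5. It read 13.26 and 13.06 in E13.5 males and 12.55 and 12.20 in E13.5 females, 0.79 higher in males (SE 0.16, limma, adjusted p = 0.0121). It was 0.86 higher in E13.5 males than at E10.5 (adjusted p = 0.00605), where it read 12.21 and 12.40. Its change in females since E10.5 and its sex difference at E12.5 did not pass. Ldhc, the subunit of adult testis, fell by 1.62 in males and by 1.30 in females against E10.5 (SE 0.24 each, limma, adjusted p = 0.0014 and 0.00382). Slc16a7, a monocarboxylate transporter, read 0.77 and 2.80 in E13.5 males and 5.25 and 4.76 in E13.5 females and passed as lower in males (limma, adjusted p = 0.025), but both male signals were dim, below the table median of 4.72, so no size is given.

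**Figure D4:**
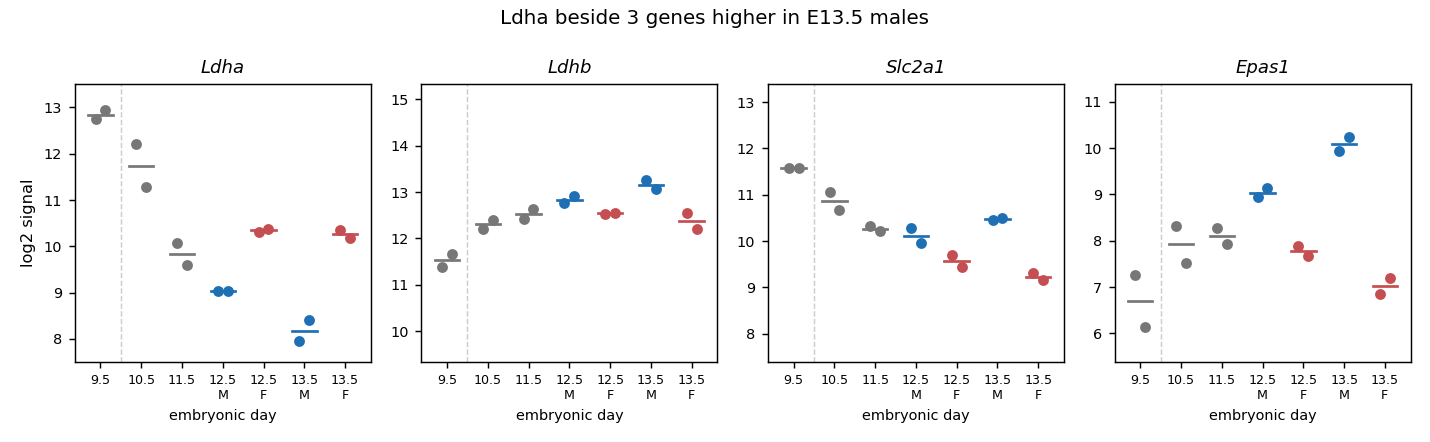
Log2 signal of Ldha, Ldhb, Slc2a1 and Epas1 on each array, with males left of females at E12.5 and E13.5; points are arrays and bars group means, with a dashed line after E9.5. At E13.5 Ldha is lower in males, and Ldhb, Slc2a1 and Epas1 are higher in males.

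Of 14 regulators of glycolytic genes, 1 rose and 1 fell in E13.5 males against E10.5, and 1 rose and 3 fell in E13.5 females. Between the sexes at E13.5, 2 were higher and 1 lower in males. Epas1, which encodes the hypoxia-inducible factor HIF-2 alpha, read 9.94 and 10.23 in E13.5 males and 6.86 and 7.20 in E13.5 females, a difference of 3.06 (SE 0.28, limma, adjusted p = 0.000105). Mlxipl, the glucose-sensing factor ChREBP, read 6.29 and 5.32 in E13.5 males and 8.93 and 9.01 in E13.5 females, a difference of -3.17 (SE 0.35, limma, adjusted p = 0.000337). Both genes also passed at E12.5, with differences of 1.27 and -1.94 (adjusted p = 0.0423 and 0.0178). Egln3, a prolyl hydroxylase that marks hypoxia-inducible factors for breakdown, fell in both sexes against E10.5, with changes of -1.45 in males and -2.29 in females (SE 0.25 each, limma, adjusted p = 0.00308 and 0.000166).

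Of 9 other hypoxia-induced genes, 0 passed in E13.5 males against E10.5 and 3 fell in E13.5 females, and 2 were higher in males than in females at E13.5. Of 10 genes of the pentose phosphate pathway, which branches off after hexokinase, 1 rose and 2 fell in males and 2 rose and 1 fell in females against E10.5. Pgd, phosphogluconate dehydrogenase, rose in both: it read 10.89 and 11.18 in E13.5 males and 10.91 and 10.90 in E13.5 females, against 9.96 and 9.53 at E10.5, by 1.29 and 1.16 (SE 0.21 each, limma, adjusted p = 0.00228 and 0.00315). The median change of this list was 0.85 in males and 0.86 in females, beside 0.07 and 0.08 for all genes. Tktl1, a transketolase-like gene, rose by 2.88 in females (limma, adjusted p = 0.000762). Rpe fell in both sexes, with changes of -1.01 in males and -1.065 in females (limma, adjusted p = 0.0171 and 0.0095). Tkt fell in males, with a change of -0.785 (limma, adjusted p = 0.0494). Between the sexes at E13.5, 0 of the 10 were higher and 3 lower in males, while 6% of all genes passed as lower. The differences were -1.725 for Tktl1, -0.955 for Tkt and -1.605 for H6pd (limma, adjusted p = 0.0226, 0.0245 and 0.0388).

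Of 14 genes for the entry of pyruvate into mitochondria, 1 rose and 1 fell in E13.5 males against E10.5, and 2 rose and 0 fell in females. Pdp1, a phosphatase that activates pyruvate dehydrogenase, rose by 2.23 in males and by 2.60 in females (SE 0.26 each, limma, adjusted p = 0.000284 and 0.000108). It read 9.81 and 9.47 in E13.5 males and 10.25 and 9.77 in E13.5 females, against 7.18 and 7.64 at E10.5. Mpc1, a subunit of the mitochondrial pyruvate carrier, fell by 1.72 in males (adjusted p = 0.0106). Of 12 glycogen and hexosamine genes, 3 fell in males and 4 in females, among them Pgm2, a phosphoglucomutase, with changes of -2.69 in males and -1.89 in females (SE 0.30 each, limma, adjusted p = 0.000197 and 0.00133). Of 6 genes that control fructose bisphosphate, 1 fell in males and 0 passed in females. That gene was Fbp2, a fructose bisphosphatase known from muscle, with dim signals of 2.35 and 3.13 in E13.5 males against 4.25 and 4.72 at E10.5.

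The likeness of other genes to Hk1 was measured as Pearson's r over the 12 sorted arrays, among 9096 genes with a mean above that of the median gene. These arrays share their ages and their preparation, so the values describe and carry no test. The 5 most alike were Rhoc (0.984), Lgals9 (0.955), Ak1 (0.95), Acsl5 (0.948) and E2f8 (0.944). Rhoc read 7.64 and 7.94 in E13.5 males and 8.05 and 8.56 in E13.5 females, and 8.65 to 9.06 on the other 8 arrays. The lowest r values were those of Ssbp2 (-0.978), Gramd3 (-0.972) and Trpm7 (-0.971). Ssbp2 read 11.25 and 11.02 in E13.5 males and 11.16 and 10.77 in E13.5 females, and 10.04 to 10.43 on the others. Among the members, Pfkl stood at rank 14 with an r of 0.93, Pfkp at rank 39 with 0.884 and Slc2a3 at rank 242 with 0.773. Hk2 followed with 0.65, Aldoa with 0.527, Ldha with 0.484, Pgk1 with 0.428 and Pgam1, at rank 1763, with 0.381.

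**Figure D5:**
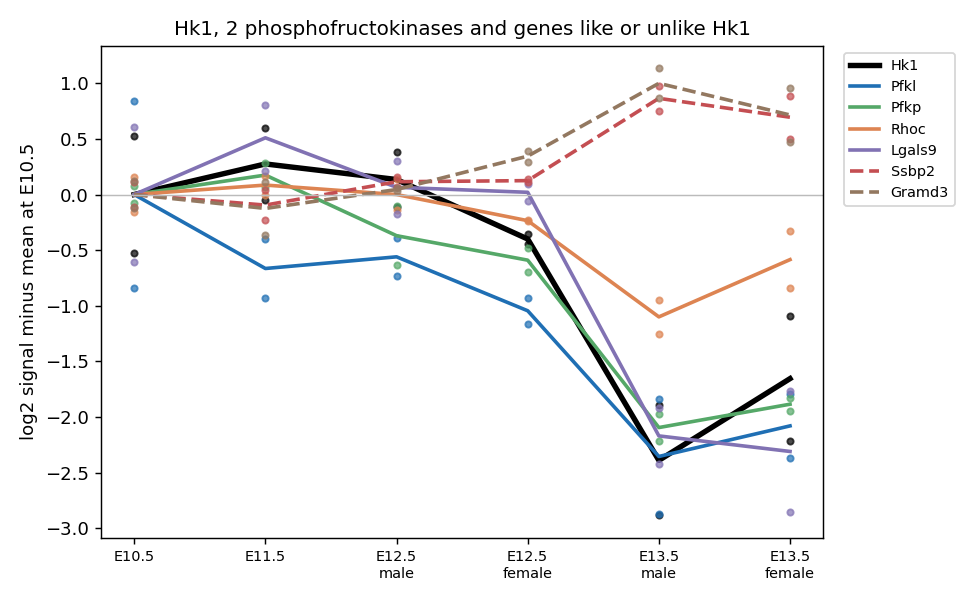
Log2 signal minus the E10.5 mean for Hk1, Pfkl, Pfkp, Rhoc and Lgals9 (solid lines) and Ssbp2 and Gramd3 (dashed lines); points are the 12 arrays, and lines join group means to guide the eye, with males left of females. In both E13.5 groups the means of the first 5 genes lie below 0 and those of Ssbp2 and Gramd3 above it.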

How the data were processed

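RNA was measured on 14 Affymetrix arrays. Per the labels' protocols, cDNA was amplified by PCR and biotin-labelled cRNA was hybridized. The deposited table holds log2 signals per probe set, which the authors normalized jointly with the earlier E9.5 arrays, per the series' design text. The log2 scale was read from the values. How signals were corrected, summarized and normalized is not stated in those sources. Zeros made up 1.54% to 1.83% of each array.

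Of 45101 probe sets (64 controls), 34958 had 1 gene symbol in the platform annotation, 932 had several and 9211 had none. The last kinds were left out. Each of 18194 genes was represented by its probe set of highest mean. Linear models with 1 mean per group were fitted (limma 3.58.1, R 4.3.3; moderated variances with an intensity trend) on the 12 sorted arrays, or on all 14 where E9.5 was involved. Tests were two-sided, and Benjamini-Hochberg adjustment ran over all genes of a comparison with a threshold of 0.05. Fits were tested on simulated data. The number of arrays limits the precision. No array was dropped or imputed.

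The members and lists were chosen with earlier results of these data known. Named genes are all members, up to 4 passing genes of each list in order of adjusted p (the text gives fewer), and the 5 highest and 3 lowest r with Hk1. Promoters and coordinates are from RefSeq (GRCm38.p6). Replicate numbers were not taken to pair the arrays in the main fits. Over 15 pairs of groups, the deviations of same-numbered arrays correlated at -0.19 to 0.276, with 2 over 0.1. These values run over all genes and do not settle pairing for a given pair of groups or a given gene. Alternatives included quantile normalization, centring of array medians, a filter on dim genes, other uses of probe sets, variance models, sets of arrays, and leaving out each array.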

Additional observations from a re-analysis of the deposited data

Results flagged for a closer look

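The differences of Ldha between the sexes stand here because, among the members, they were the ones that passed a test of the difference itself. At E12.5 the male arrays read 9.03 and 9.03 and the female arrays 10.31 and 10.38, a difference of -1.32 (limma, adjusted p = 0.0452). Relative to E11.5, both male arrays lay below both E11.5 arrays and both female arrays above them. At E13.5 the male arrays read 7.95 and 8.41 and the female arrays 10.36 and 10.19, a difference of -2.10 (limma, adjusted p = 0.00123). Groups of 2 arrays allow no test for an outlying array.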

How the results depend on the processing

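Ldha in E13.5 males kept its calls against E13.5 females and against E10.5 under all 16 alternatives tried for each, with adjusted p-values up to 0.0389 and 0.0195. Pfkp against E10.5 kept its call under 15 of 16 in each sex and lost it with the mean of all probe sets, by construction since its other probe sets were dim. The cause was not tested for the other changes below.

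The count of members passing moved as follows. For E10.5 against E9.5 it was 0 and became 1 under quantile normalization, median centring and without genes below the median. Of all genes, 1.23%, 1.19% and 1.86% passed under these settings, beside 1.06% before. For E11.5 against E10.5 the count was 0 and became 1 under quantile normalization, median centring and a fit of all 14 arrays. Of all genes, 0.159%, 0.148% and 0.0495% passed under these settings, beside 0.0769% before. For E12.5 against E11.5, leaving out 1 array gave 0 to 0 in males and in females. For E13.5 against E12.5 it was 1 in each sex and became 0 with the mean of probe sets and, as an alternative added after seeing the data, without both E13.5 replicate 2 arrays. With the mean of probe sets 1.53% of all genes passed in males and 1.24% in females, beside 2.09% and 1.87% before. The count was 2 in males with array weights, where 4.38% of all genes passed. For males against females at E12.5 it was 1 and became 0 with the mean of probe sets, every probe set on its own, no intensity trend, the replicate block and the Gapdh difference as a covariate, and 0 with any 1 array left out. At E13.5 it was 1 throughout, and for the change of the sex difference 0 throughout. For E13.5 males against E10.5 it was 5 and became 2 with the compared arrays alone, 3 with the Gapdh covariate, 3 without both replicate 2 arrays, and 3 to 5 with 1 array left out. For E13.5 females against E10.5 it was 7 and became 1 with the compared arrays alone, 4 with no intensity trend, 4 with array weights, 4 with the Gapdh covariate, 4 without both replicate 2 arrays, and 3 to 6 with 1 array left out. The replicate block changed no other count of members. Over all genes, 12.7% passed for E13.5 males against E10.5, with 3.18% for the compared arrays alone and 9.43% for the Gapdh covariate. For E13.5 females against E10.5, 17.9% passed, with 5.62% for the compared arrays alone and 15.2% for no intensity trend. Array weights gave 12.3% there and the Gapdh covariate 15.5%. For males against females at E12.5, the processing settings named gave 1.29% to 2.13%, beside 2.39% before. The Hk1 difference between E12.5 males and E11.5, a description, was -0.14 and became 0.068 with the Gapdh covariate, and -0.46 to 0.180 with 1 array left out.

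Median centring moved the median change of all genes by over 0.1 in some comparisons, for example to -0.08 for E12.5 females against E11.5 (0.05 before), 0.08 for males against females at E12.5 (-0.04 before) and 0.09 at E13.5 (-0.02 before). It moved the share of passing genes that were higher to 41.5% for males against females at E12.5 (27.8% before), to 51.6% at E13.5 (41.2% before) and to 60.8% for E12.5 females against E11.5 (76% before). Quantile normalization moved it to 54.4% for E13.5 males against E12.5 males (65.1% before) and to 53.5% for E13.5 females against E10.5 (64.2% before). A fit of 12 arrays was not possible for E10.5 against E9.5. Probe sets below the table median, such as 2 of Pfkp, carry little signal over background.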
